A study of Ovis aries with 15 samples.

Results

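A group of 44 genes that act in mitosis was followed in fetal sheep (Ovis aries) liver over the last part of gestation. The group was given as a list of symbols, and it holds mitotic kinases, cyclins A and B, regulators of CDK1, motor kinesins, centromere and kinetochore proteins, spindle proteins, chromosome proteins, cohesion and anaphase factors and cytokinesis proteins. Of the 44 genes, 43 were found among the 31411 genes of the deposited table, and all 43 were tested. HMMR, a spindle protein, was not analysed here. Whole liver was sampled at gestational day (GD) 100, 124 or 144, with 4, 5 and 6 libraries, and no treatment, genotype, breed or sex is given in the labels. Poly(A) RNA was sequenced from these pieces of tissue. Nothing in the labels says whether each library is from its own fetus, and the p-values therefore cover only the spread between these samples, which may be technical. Each library also carries a code whose letters differ between the stages, so that a batch or cohort following these codes cannot be told apart from the stage.

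A dividing cell builds up the products of these genes from late S phase to mitosis and degrades many of them as it exits. CDK1 bound to cyclin A or B starts mitosis, Aurora and Polo-like kinases with the kinesins build the spindle, kinetochores tie the chromosomes to it, and the anaphase-promoting complex with its activator CDC20 then releases the sister chromatids. In fetal life the liver is a site of blood formation, in which dividing erythroid precursors lie between the hepatocytes until blood formation moves to the bone marrow. In bulk tissue, fewer cells of a type and less RNA per cell cannot be told apart.

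Library totals ran from 24215612 to 38247295 estimated counts, and a floor of 3 counts corresponded to 0.0784 to 0.124 CPM, the counts-per-million unit. Levels are given as CPM with scaling by the trimmed mean of M values (TMM). A gene's CPM is not corrected for length. Levels of different genes, or sums of different lists, therefore cannot be compared as amounts of transcript. Changes are log2 fold changes with their standard error from edgeR's quasi-likelihood test over 16977 genes, and a change was called at a Benjamini-Hochberg adjusted p under 0.05. The share of genes with a fractional count was 10.6 to 10.8% in GD100 replicates 2 to 4 and 5.09 to 6.2% elsewhere. The part of this difference in counting in the results at GD100 was not tested. Values with replicate 1 alone standing for GD100 are given for some results only, such as the count of members called at GD124, TPX2 and OIP5. All other comparisons with GD100 and shares of its level left rest on replicates 2 to 4 as well. GD144 replicate 3 stood apart in the mitosis genes, and results are given with and without it.

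**Figure D1:**
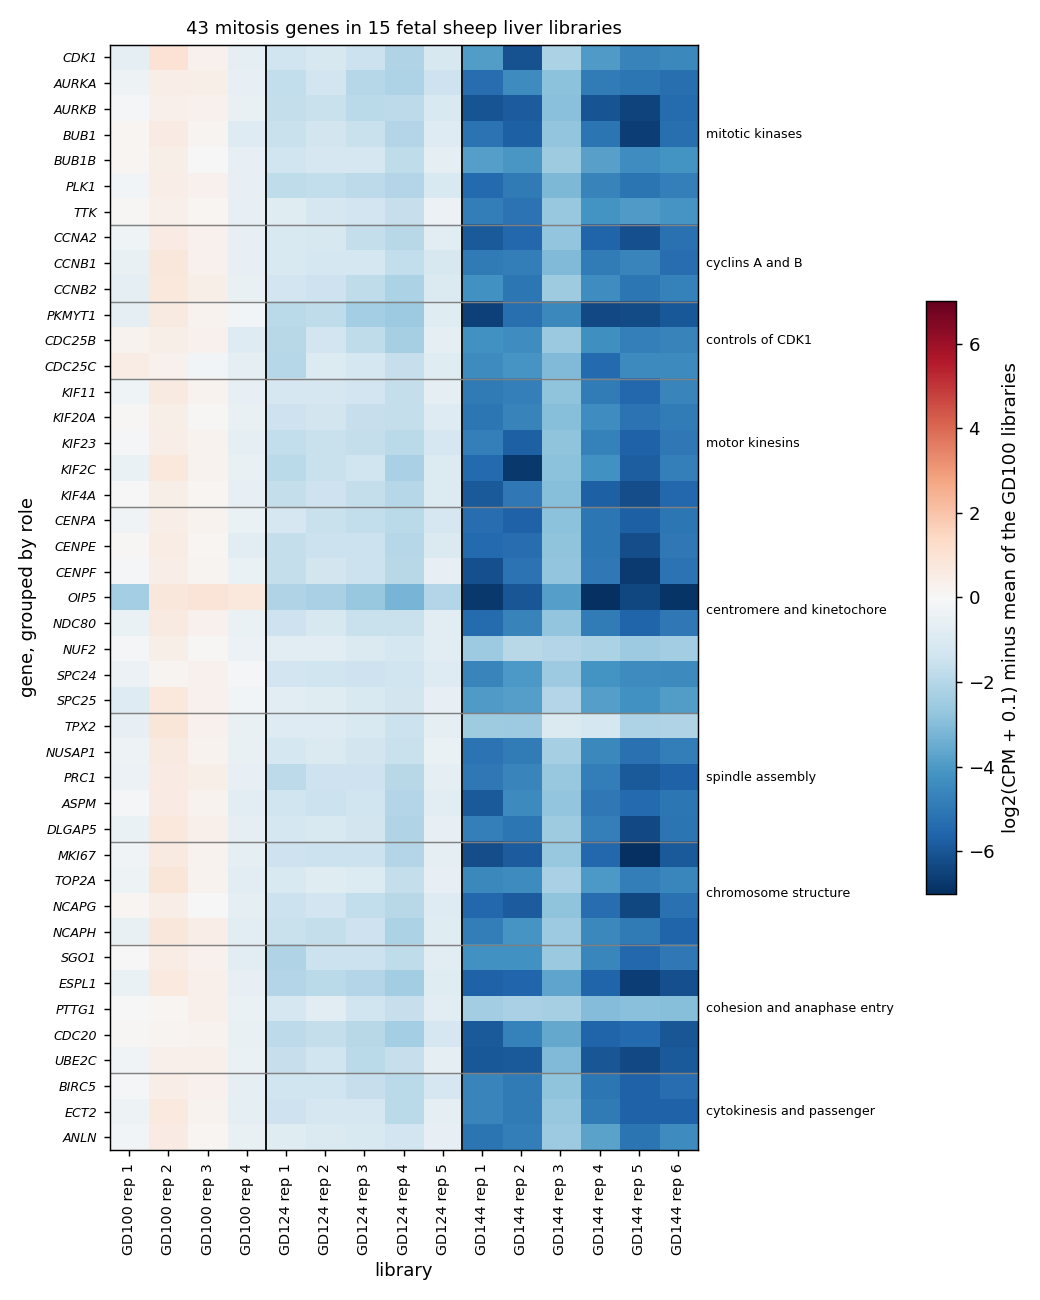
Level of each of the 43 measured mitosis genes in each of the 15 libraries, as log2 CPM with an offset of 0.1, minus the mean of that gene over the GD100 libraries, with genes in rows grouped by role and libraries in columns grouped by stage. Blue is below and red above the GD100 mean, the GD144 columns are the darkest blue, and GD144 replicate 3 is above the other GD144 libraries in 41 of the 43 genes.

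Mitosis genes fell from GD100 to GD144 in every role. All 43 measured genes were called lower at GD144 than at GD100, and in all 43 every GD144 library lay below every GD100 library. Over all genes tested, 55.0% were called in this comparison, 27.9% lower and 27.1% higher, and 20.8% had every GD144 library below every GD100 library. The log2 changes ran from -6.33 in PKMYT1 to -1.93 in TPX2 with a median of -4.46, beside a median of 0.03 over all genes tested. Adjusted p from edgeR lay between 5.69e-08 for NUF2 and 0.000163 for TPX2. With GD100 replicate 1 alone at its stage, the log2 change of TPX2 was -1.22, a smaller fall than with all GD100 libraries.

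MKI67, which encodes the Ki-67 protein that coats mitotic chromosomes and marks cycling cells, was measured at 616, 1162, 870 and 485 CPM in GD100 replicates 1 to 4. Its 5 GD124 libraries held 272, 265, 265, 181 and 455 CPM, and its 6 GD144 libraries ran from 5.55 over a median of 12.8 to 118 CPM. No libraries of different stages overlapped, and GD144 replicate 3 held the 118 CPM while the other GD144 libraries held at most 16.3 CPM. The change from GD100 to GD124 was -1.45 ± 0.74 (SE) with an adjusted p of 0.144 and was not called. MKI67 then fell by 3.29 ± 0.7 on the log2 scale from GD124 to GD144 (adjusted p = 0.00331).

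TOP2A, the topoisomerase that untangles sister chromatids, was at 113, 262, 170 and 84.8 CPM at GD100 and at 68.7, 78.8, 75.2, 45.7 and 96.7 CPM at GD124. Its GD144 libraries ran from 5.01 over a median of 6.42 to 29.5 CPM. GD100 replicate 4 lay below GD124 replicate 5, so the first stages overlapped, while every GD144 library was below all others. The log2 change was -1.11 ± 0.49 in the earlier interval (adjusted p = 0.0942) and -2.81 ± 0.46 in the later interval (adjusted p = 0.000507).

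CDK1, the kinase that drives entry into mitosis, was at 10.3, 33.4, 20.6 and 10.5 CPM at GD100 and at 6.32, 7.42, 5.84, 3.78 and 7.47 CPM at GD124. At GD144 it ran from 0.147 over a median of 0.787 to 3.5 CPM. The stages did not overlap, although GD144 replicate 3 came close to the lowest GD124 library. CDK1 fell by 1.6 ± 0.57 on the log2 scale to GD124 (adjusted p = 0.0431) and by a further 2.42 ± 0.55 to GD144 (adjusted p = 0.00458).

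CCNB1, the cyclin B1 partner of CDK1, held 26.8, 65.0, 47.8 and 25.5 CPM at GD100, then 18.5, 16.5, 16.2, 11.4 and 17.4 CPM at GD124. GD144 libraries ran from 0.865 over a median of 1.23 to 4.35 CPM, and no stages overlapped. Its log2 level fell by 1.37 ± 0.39 in the earlier interval (adjusted p = 0.0153) and by 3.21 ± 0.39 in the later interval (adjusted p = 4.5e-05).

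**Figure D2:**
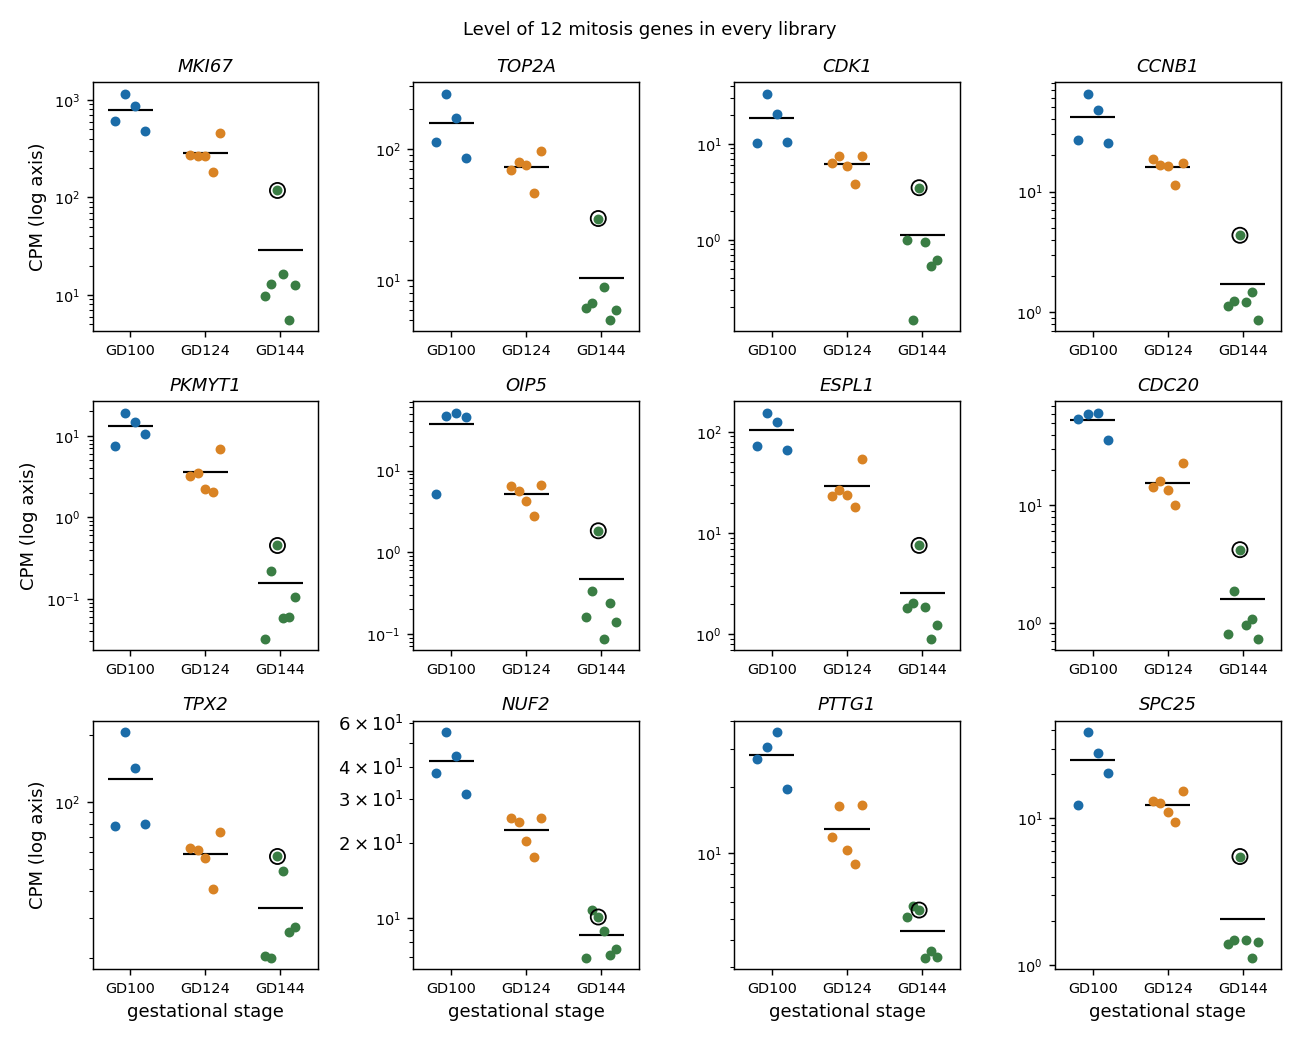
CPM of 12 mitosis genes in each library, on a log axis, by stage, with a point for each library and a bar at the stage mean. GD144 replicate 3 is circled, and it is the highest GD144 point except in NUF2 and PTTG1, while TPX2 has GD144 points that overlap those of GD124.

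The 4 largest falls over the whole span were those of PKMYT1, OIP5, ESPL1 and CDC20. PKMYT1, a membrane-bound kinase that holds CDK1 inactive, was at 7.51, 19.2, 14.8 and 10.6 CPM at GD100 and at 3.22, 3.49, 2.25, 2.02 and 6.83 CPM at GD124. Its GD144 libraries ran from 0.0321 over a median of 0.0819 to 0.451 CPM, with 4 of the 6 at or under the floor of 3 counts and at most 17 counts in any. No stages overlapped in PKMYT1. It fell by 1.87 ± 0.47 to GD124 (adjusted p = 0.00678), by 4.46 ± 0.52 from there to GD144 (adjusted p = 2.94e-05) and by 6.33 ± 0.55 over the whole span (adjusted p = 2.15e-07).

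OIP5, which helps to load the centromere histone CENPA, was at 5.18 CPM in GD100 replicate 1 and at 47.2, 51.1 and 45.8 CPM in replicates 2 to 4. At GD124 its libraries held 6.41, 5.65, 4.3, 2.77 and 6.7 CPM, and at GD144 they ran from 0.0864 over a median of 0.2 to 1.83 CPM. GD100 replicate 1 thus lay within the GD124 range, and the 3 libraries that hold more fractional counts were the high ones. OIP5 fell by 2.85 ± 0.71 on the log2 scale to GD124 (adjusted p = 0.00752) and by 6.26 ± 0.78 to GD144 (adjusted p = 1.3e-05). With GD100 replicate 1 alone, the log2 changes of OIP5 were 0.00 (adjusted p = 1) and -3.42 (adjusted p = 0.0128).

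ESPL1, the separase that cuts the cohesin ring at anaphase, held 71.6, 154, 124 and 65.9 CPM at GD100 and 23.2, 26.7, 23.8, 17.9 and 53.3 CPM at GD124. Its GD144 libraries ran from 0.901 over a median of 1.85 to 7.56 CPM. The stages did not overlap, and GD124 replicate 5 stood above its 4 fellows. The fall of ESPL1 was 1.84 ± 0.52 in the earlier interval (adjusted p = 0.0147) and 3.48 ± 0.51 in the later interval (adjusted p = 0.000235).

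CDC20, the activator of the anaphase-promoting complex, held 54.6, 60.3, 61.4 and 36.2 CPM at GD100 and 14.4, 16.2, 13.5, 10.1 and 23.0 CPM at GD124. At GD144 it ran from 0.727 over a median of 1.02 to 4.19 CPM, with no overlap between stages. It fell by 1.78 ± 0.41 in the earlier interval (adjusted p = 0.00462) and by 3.25 ± 0.41 in the later interval (adjusted p = 6.07e-05).

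The 4 smallest falls were those of TPX2, NUF2, PTTG1 and SPC25, and these members also kept the most of their GD100 level. TPX2, which activates Aurora kinase A on the spindle, held 77.9, 207, 142 and 79.6 CPM at GD100 and 62.1, 61.0, 56.3, 40.8 and 73.7 CPM at GD124. At GD144 its replicates 1 to 6 held 20.4, 19.9, 57.0, 48.8, 26.2 and 27.4 CPM. GD144 replicates 3 and 4 therefore lay within the range of GD124, and TPX2 was the only member in which these 2 stages overlapped. TPX2 fell by 1.11 ± 0.35 to GD124 (adjusted p = 0.0234), whereas its later change of -0.82 ± 0.31 was not called (adjusted p = 0.0655). Without GD144 replicate 3 that later change was -1.04 and called (adjusted p = 0.0167), and without GD144 replicate 4 it was -0.93 (adjusted p = 0.0496). With every GD144 library kept, it was also called by DESeq2 and when the GD124 and GD144 libraries were fitted alone. TPX2 overlaps MYLK2 in the RefSeq table, and whether reads were counted by strand is not given in the sources used here. MYLK2 was at 4.93 to 8.3 CPM at GD100, 2.49 to 4.1 CPM at GD124 and 1.42 to 2.55 CPM at GD144.

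NUF2, a subunit of the NDC80 complex of the outer kinetochore, held 38.1, 55.4, 44.3 and 31.4 CPM at GD100 and 25.2, 24.2, 20.4, 17.5 and 25.2 CPM at GD124. Its GD144 libraries ran from 6.92 over a median of 8.19 to 10.8 CPM, a narrow range in which replicate 3 was not the highest. NUF2 fell by 0.91 ± 0.18 in the earlier interval (adjusted p = 0.00139) and by 1.39 ± 0.16 in the later interval (adjusted p = 2.56e-05). NDC80, SPC24 and SPC25, which encode the other subunits of the same complex, fell by 4.49 ± 0.51, 3.9 ± 0.35 and 3.59 ± 0.42 over the whole span, where NUF2 fell by 2.31 ± 0.17. The difference between these subunits was not tested.

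PTTG1, the securin that holds separase inactive, was at 26.8, 30.4, 35.8 and 19.6 CPM at GD100 and at 11.9, 16.4, 10.3, 8.9 and 16.6 CPM at GD124. At GD144, replicates 1 to 3 held 5.1, 5.73 and 5.49 CPM and replicates 4 to 6 held 3.31, 3.57 and 3.36 CPM. No stages overlapped in PTTG1. It fell by 1.14 ± 0.23 in the earlier interval (adjusted p = 0.00181) and by 1.53 ± 0.21 in the later interval (adjusted p = 0.000103).

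SPC25 was at 12.4, 39.0, 28.1 and 20.3 CPM at GD100 and at 13.2, 12.8, 11.1, 9.49 and 15.4 CPM at GD124. At GD144 it ran from 1.11 over a median of 1.44 to 5.49 CPM, below all earlier libraries. Its lowest GD100 library lay among those of GD124, and the change of -1.01 ± 0.42 between them was not called (adjusted p = 0.0732). SPC25 then fell by 2.58 ± 0.4 (adjusted p = 0.00029).

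In the earlier interval, GD124 against GD100, 28 of the 43 members were called lower and none higher, where 34.0% of all genes tested were called, 17.4% lower and 16.6% higher. A count of 41 members had an unadjusted p under 0.05. The changes ran from -2.85 in OIP5 to -0.91 in NUF2 with a median of -1.45, beside a median of 0.015 over all genes. In 35 members every GD124 library lay below every GD100 library, as in 12.6% of all genes. The 8 members whose stages overlapped were TTK, CDC25B, OIP5, SPC25, NUSAP1, ASPM, DLGAP5 and TOP2A. The 15 members not called were UBE2C, AURKB, MKI67, CCNA2, NCAPG, BUB1, CENPF, ECT2, PRC1, DLGAP5, NUSAP1, TTK, ANLN, TOP2A and SPC25, whose adjusted p ran from 0.0513 to 0.144.

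The count of 28 depended on single libraries. It was 14 without GD100 replicate 2, 15 without GD100 replicate 3 and 17 without GD124 replicate 4. It was 43 without GD144 replicate 3, which belongs to neither stage and enters through the shared spread, gene filter and scaling. The count was also 43 when the GD100 and GD124 libraries were fitted alone. When GD100 was represented by replicate 1 alone, assumed to vary like the other stages, no member was called, the median change of the members was -1.11, and 17.0% of all genes were called, 8.57% lower. Over all genes, 13.9% were called lower without GD100 replicate 2, 13.4% without GD100 replicate 3, 14.8% without GD124 replicate 4, 18.1% without GD144 replicate 3 and 17.1% when the GD100 and GD124 libraries were fitted alone.

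In the later interval, GD144 against GD124, 42 of the 43 members were called lower and none higher, where 27.5% of all genes tested were called, 15.4% lower and 12.1% higher. The exception was TPX2, which was called by DESeq2 and when the GD124 and GD144 libraries were fitted alone. Changes ran from -4.46 in PKMYT1 to -0.82 in TPX2 with a median of -3.03, beside a median of -0.01 over all genes. Every GD144 library lay below every GD124 library in 42 members, as in 11.0% of all genes. The highest adjusted p among the members called was 0.00458, that of CDK1.

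**Figure D3:**
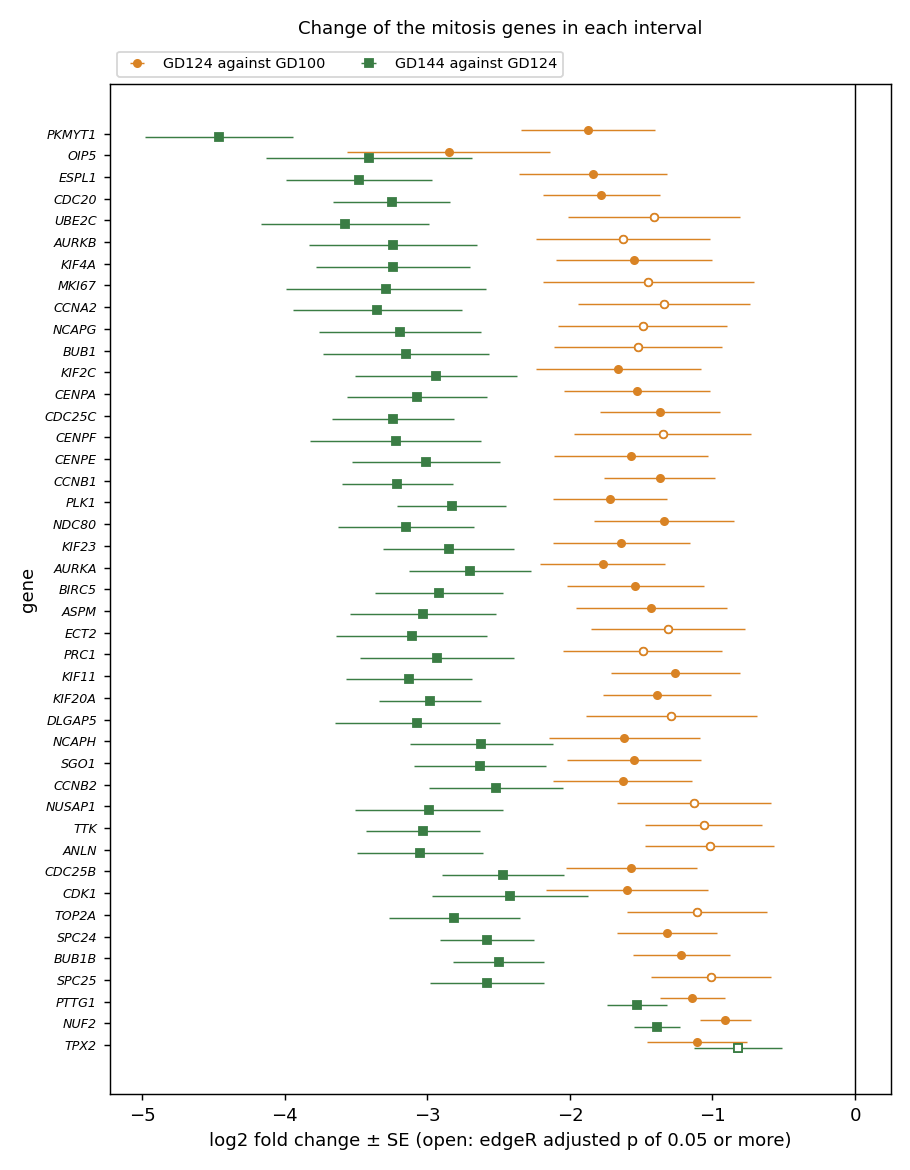
Log2 fold change of each of the 43 mitosis genes in the earlier interval (GD124 against GD100) and in the later interval (GD144 against GD124), with bars of 1 standard error and genes ordered by their change over the whole span. Open symbols have an edgeR adjusted p of 0.05 or more. The later change is the lower of the pair in 42 genes, and TPX2 is the exception. Both comparisons share the GD124 libraries.

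The fitted change was larger downwards in the later interval than in the earlier interval in 42 of the 43 members, with a median difference of -1.59. The intervals spanned 24 and 20 days. A test of this difference by edgeR called 0 of the 43 members, where 5.9% of all genes were called, 3.75% with a more negative and 2.15% with a more positive later change. The lowest adjusted p was 0.0693, that of PKMYT1, and 14 members had an unadjusted p under 0.05. DESeq2 called 1 member, PKMYT1, with a difference of -2.57 ± 0.82 (adjusted p = 0.0236). In that fit 5.16% of all genes had a called and more negative later change, so 1 of 43 is no excess. Without GD144 replicate 3, edgeR called 34 of the 43 members, where 5.38% of all genes had a called and more negative later change in that fit. That library was singled out by its high level in these same genes. Leaving it out lowers their GD144 level, so the 34 is no separate evidence of a larger later fall. Among the 34 were UBE2C at -3.26 (adjusted p = 0.000459) and MKI67 at -3.2 (adjusted p = 0.00279). By GD124, the members had covered 25.1% of their whole log2 fall in ANLN to 57.5% in TPX2, with a median of 32.8%.

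All 43 members had negative changes in both intervals, and the counts by role below are of members called lower. Over all genes tested, 17.4% were called lower in the earlier interval and 15.4% in the later interval. Small counts within a role are to be read beside these shares. Among the 7 mitotic kinases, 4 were called lower in the earlier interval and all 7 in the later interval. Their median change over the whole span was -4.47. PLK1, the Polo-like kinase that acts from centrosome to cytokinesis, had means of 81.4 ± 26.4 CPM (SD, n = 4) at GD100, 24.7 ± 6.91 CPM (n = 5) at GD124 and 3.45 ± 2.65 CPM (n = 6) at GD144. AURKA, the Aurora kinase of the spindle poles, went from 40.6 ± 14.3 over 11.9 ± 2.84 to 1.81 ± 1.64 CPM, a fall of 4.47 ± 0.46 over the whole span. AURKB, the kinase of the chromosomal passenger complex, went from 58.6 ± 15.4 over 18.9 ± 4.61 to 1.96 ± 2.74 CPM. BUB1, BUB1B and TTK, kinases or kinase-like proteins of the spindle checkpoint, fell by 4.67 ± 0.62, 3.72 ± 0.34 and 4.09 ± 0.43 over the whole span. Only BUB1B of these 3 was called in the earlier interval, with adjusted p values of 0.0119 for BUB1B, 0.061 for BUB1 and 0.0557 for TTK.

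Of the 3 cyclins, CCNB1 and CCNB2 were called lower in both intervals and CCNA2 in the later interval only. CCNA2, the cyclin A2 that acts in S phase and early mitosis, had a mean of 88.1 ± 30.9 CPM at GD100, 34.9 ± 10.4 CPM at GD124 and 3.38 ± 4.41 CPM at GD144, with an adjusted p of 0.103 for the earlier change. CCNB2 went from 47.8 ± 22.0 over 15.5 ± 4.68 to 2.67 ± 2.48 CPM. The 3 regulators of CDK1 all fell in both intervals. Beside PKMYT1 these are CDC25B and CDC25C, phosphatases that activate CDK1, which fell by 4.04 ± 0.46 and 4.6 ± 0.45 over the whole span. PKMYT1, an inhibitor, and the CDC25 activators thus moved in the same direction. CDC25C had 1 GD144 library at or under 3 counts.

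The 5 motor kinesins all fell in both intervals, with a median of -4.49 over the whole span and a narrow range from -4.79 to -4.37. KIF11, the motor that pushes the spindle poles apart, went from 94.9 ± 36.4 over 39.7 ± 10.3 to 4.52 ± 4.03 CPM. KIF23 and KIF20A, motors of the central spindle and cytokinesis, fell by 4.49 ± 0.49 and 4.37 ± 0.39. KIF2C, which takes microtubules apart at centromeres, fell by 4.61 ± 0.61, and KIF4A, a motor bound to chromosome arms, by 4.79 ± 0.58. The stages did not overlap in any of the 5. Over all genes, every later library lay below every earlier library in 12.6% for the earlier interval and in 11.0% for the later interval.

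Of the 8 centromere and kinetochore genes, 6 were called lower in the earlier interval and all 8 in the later interval. Their median was -4.53 over the whole span. CENPA, the histone H3 variant of centromeres, went from 67.1 ± 19.8 over 23.2 ± 5.19 to 2.73 ± 3.03 CPM. CENPE, a kinetochore motor, and CENPF, a large kinetochore protein, both fell by 4.58 over the whole span, with standard errors of 0.56 and 0.65. NUF2 at -2.31 and OIP5 at -6.26 were the smallest and the largest fall of this role, and the other 6 lay between -4.6 and -3.59.

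Among the 5 measured spindle assembly genes, 2 were called lower in the earlier interval and 4 in the later interval. ASPM, a spindle pole protein, went from 59.6 ± 22.1 over 22.1 ± 7.37 to 2.68 ± 2.81 CPM, with an adjusted p of 0.0489 for the earlier change. PRC1, which bundles the central spindle, NUSAP1, which binds spindle microtubules, and DLGAP5, which stabilises them, fell by 4.42 ± 0.58, 4.13 ± 0.55 and 4.36 ± 0.62 over the whole span. Of the 4 chromosome structure genes, NCAPH was called in both intervals and MKI67, TOP2A and NCAPG in the later interval. NCAPG and NCAPH, subunits of condensin I, went from 118 ± 34.6 to 4.58 ± 5.67 CPM and from 61.4 ± 30.6 to 3.22 ± 3.06 CPM between GD100 and GD144.

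Of the 5 cohesion and anaphase genes, 4 were called lower in the earlier interval and all 5 in the later interval. Their median was -4.99 over the whole span. UBE2C, the ubiquitin-conjugating enzyme of the anaphase-promoting complex, went from 188 ± 50.8 over 70.7 ± 25.6 to 5.87 ± 7.59 CPM, with an adjusted p of 0.0847 for the earlier change. SGO1, the shugoshin that protects centromeric cohesion, fell by 4.18 ± 0.49 over the whole span. ESPL1 and its inhibitor PTTG1 fell by 5.32 ± 0.56 and 2.67 ± 0.23. The 3 genes of the cytokinesis group were all called in the later interval and BIRC5 alone in the earlier interval. BIRC5, the survivin subunit of the passenger complex, went from 97.4 ± 30.9 over 33.5 ± 6.03 to 4.41 ± 4.32 CPM. ECT2, which activates RhoA at the division plane, and ANLN, the anillin scaffold of the contractile ring, fell by 4.42 ± 0.56 and 4.07 ± 0.46.

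At GD144 the median member held 4.5% of its mean GD100 CPM, against 36.7% at GD124. A share under 5% was left in 28 members and a share under 10% in 40. Without GD144 replicate 3 the median was 2.74%, and 38 members held under 5%. The lowest shares were those of PKMYT1 at 1.18%, OIP5 at 1.24%, ESPL1 at 2.47% and CDC20 at 3.02%. Without replicate 3 the lowest were those of OIP5 at 0.512%, PKMYT1 at 0.728%, AURKB at 1.45% and MKI67 at 1.46%, with ESPL1 at 1.51% and CDC20 at 2.05%. Against GD100 replicate 1 alone, OIP5 held 8.97%. The highest were those of TPX2 at 26.3%, NUF2 at 20.2%, PTTG1 at 15.7% and SPC25 at 8.24%. Leaving out replicate 3, these 4 became 22.5, 19.5, 15 and 5.48%, so the first 3 kept their place above 10%. Signal remained above the floor in all GD144 libraries in 40 of the 43 members, the exceptions being PKMYT1, OIP5 and CDC25C.

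**Figure D4:**
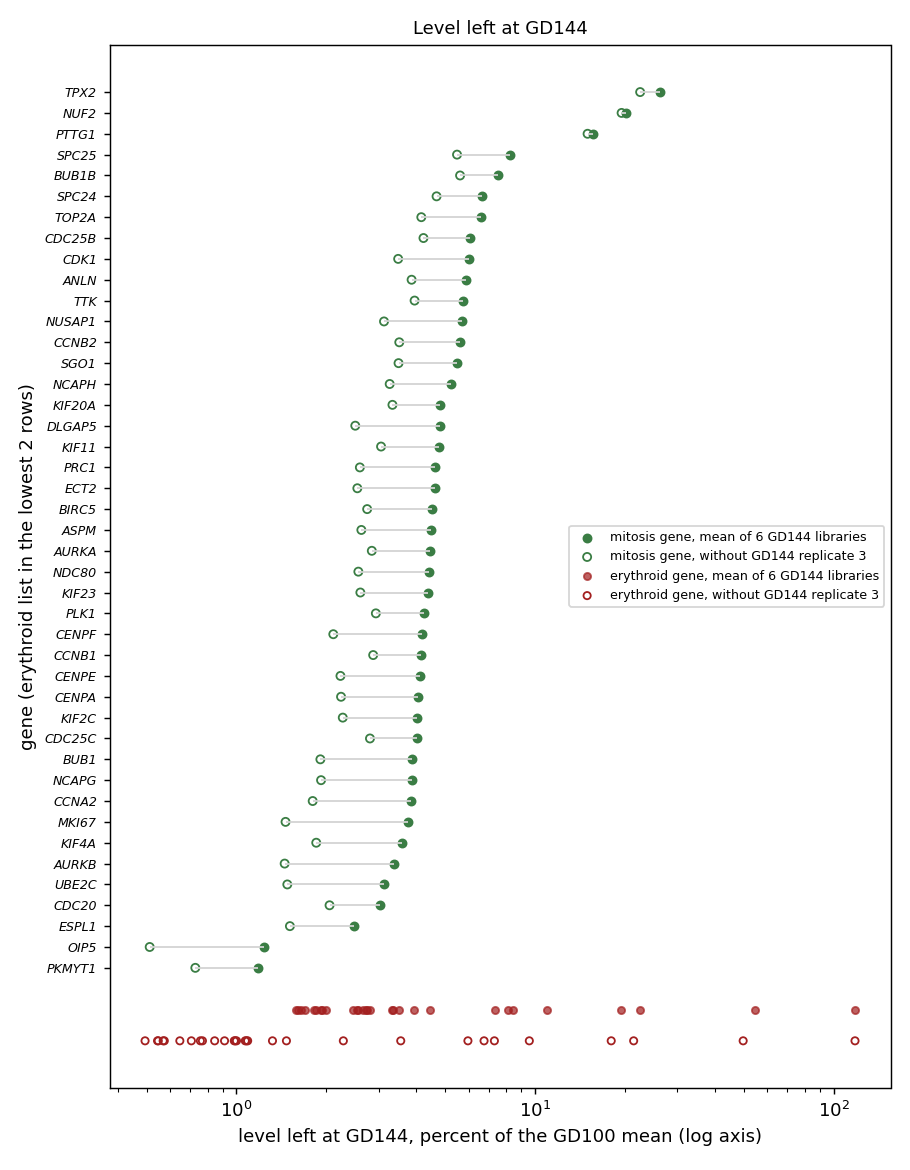
Mean CPM at GD144 as a percentage of mean CPM at GD100 for each of the 43 mitosis genes, on a log axis, over all 6 GD144 libraries (filled) and without GD144 replicate 3 (open), with the erythroid genes in the lowest 2 rows. TPX2, NUF2 and PTTG1 lie above 10% either way, and the median of the mitosis genes moves from 4.5% to 2.74%.

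GD144 replicate 3 held the highest level of its stage in 41 of the 43 members, where it was the highest of the 6 in 19.1% of all genes tested. The exceptions were NUF2 and PTTG1, both highest in replicate 2. Its level was 1.22 to 10.3 times the mean of the other 5 GD144 libraries, with a median of 4.81, and the highest ratio was that of MKI67. It nevertheless lay below every GD124 library in 42 members, the exception being TPX2. As a percentage of the GD124 mean, replicate 3 held 12.7% in PKMYT1 to 97.0% in TPX2 with a median of 39.1%. Among the erythroid genes described next, 28 of 29 were highest in the same library, with a median ratio of 9.75.

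Erythroid genes fell over the same stages. The list of 31 held transcription factors, haem and membrane genes of red cell precursors, of which 29 were tested. From GD100 to GD124, 14 were called lower, from GD124 to GD144 28 were lower and 1 higher, and over the whole span 28 were lower, with median changes of -1.71, -3.37 and -5.18. Over all genes tested, 17.4, 15.4 and 27.9% were called lower in these comparisons, and 12.1% higher from GD124 to GD144. The count of 14 was 9 without GD100 replicate 2, 27 without GD144 replicate 3 and 2 with GD100 replicate 1 alone. The gene that rose from GD124 to GD144 was ALAD, a haem synthesis enzyme also made by hepatocytes, at 0.53 (adjusted p = 0.0133), and over the whole span it changed by 0.24 (adjusted p = 0.201). KLF1, a master regulator of erythroid genes, went from 233 ± 87.9 over 60.7 ± 19.1 to 4.64 ± 8.27 CPM. GATA1, which sets the erythroid and megakaryocyte fate, went from 223 ± 58.8 over 56.5 ± 17.7 to 3.78 ± 6.35 CPM. EPOR, the erythropoietin receptor, fell by 5.93 ± 0.56 over the whole span (adjusted p = 8.97e-07), and ALAS2, the erythroid enzyme that starts haem synthesis, went from 1119 ± 696 to 28.5 ± 47 CPM.

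By the median gene, the share of the GD100 level left was larger for the mitosis genes than for the erythroid genes, and by sums it was smaller. At GD144 the median share left was 4.5% for the members and 2.74% for the erythroid list, and 3 of the 43 members lay below the erythroid median. Without GD144 replicate 3 the medians were 2.74 and 1.07%, and 2 members lay below. Of the summed CPM at GD100, 5.38% was left for the members and 6.84% for the erythroid list, and 3.38 and 5.36% without replicate 3. Without TPX2 and ALAD, chosen after their values were seen, 4.63% of the sum was left for the members and 4.11% for the erythroid list. With GD144 replicate 3 left out as well, these shares were close, at 2.7 and 2.61%. No test of these differences was made, because genes are not replicates. At GD144 without replicate 3, KLF1 was at 0.15 to 1.87 CPM and GATA1 at 0.06 to 2.57 CPM, the lowest of them in replicate 5 and, for GATA1, under the floor. In that replicate 5, the library with the lowest erythroid mean, the members summed to 93.5 CPM and the erythroid list to 680 CPM. Of the members' sum, TPX2 gave 26.2 CPM, TOP2A 5.01 CPM and MKI67 5.55 CPM, where the GD100 mean of MKI67 was 783 CPM. These parts and sums are not corrected for gene length.

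Within each stage, libraries ranked the same by the mean log2 CPM of the mitosis genes and of the erythroid genes, whereas by sums they did not at GD144. At GD100, replicates 1 to 4 summed to 2960, 5158, 4130 and 2341 CPM over the members and to 9908, 19684, 16180 and 8268 CPM over the erythroid list. GD124 replicates 1 to 5 summed to 1277, 1376, 1224, 934 and 2024 CPM over the members and to 3917, 3947, 3623, 3380 and 6575 CPM over the erythroid list. At GD144 the members summed to 111, 128, 560, 163, 93.5 and 122 CPM and the erythroid list to 666, 784, 1917, 766, 680 and 728 CPM, of which ALAD alone gave 318 to 418 CPM. By sums, the GD144 replicates ran 3, 4, 2, 6, 1 and 5 from high to low over the members and 3, 2, 4, 6, 5 and 1 over the erythroid list. By the mean of log2 CPM over each list, which weighs genes equally, both lists put the libraries in the same order within each of the 3 stages. From high to low this order was replicates 2, 3, 1 and 4 at GD100, replicates 5, 2, 1, 3 and 4 at GD124 and replicates 3, 4, 2, 6, 1 and 5 at GD144. Of the 16 other gene lists compared, the erythroid list was the only one to match the members in all 3 stages. The lists of further mitosis genes, the anaphase-promoting complex and cohesin, described below, matched at GD100 and GD124. At GD144 they too put replicate 3 first and replicate 5 last. Some GD144 means lay close together: 1.45, 1.42 and 1.4 in replicates 2, 1 and 4 for further mitosis genes. For the erythroid list they were 3.07, 3.0 and 2.86 in replicates 4, 2 and 6. With scaling by library totals alone the orders at GD144 no longer matched. These are descriptions of 15 libraries whose genes share a library total, and the hepatocyte list at GD100 had the reverse order.

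**Figure D5:**
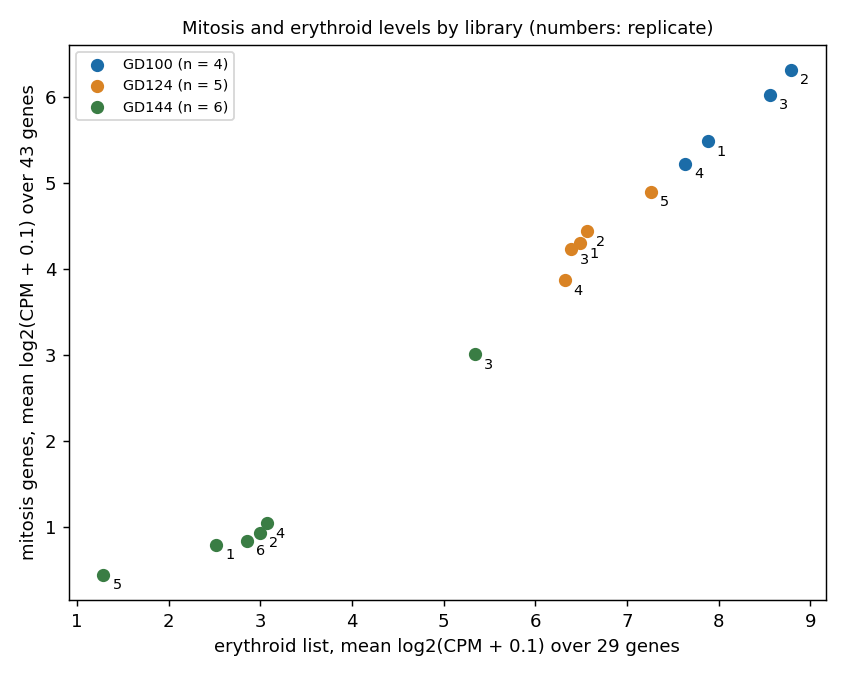
Mean log2 CPM (offset 0.1) over the 43 mitosis genes against the same mean over 29 erythroid genes, with a point for each of the 15 libraries, coloured by stage and labelled by replicate. The points fall along a band from GD100 at the upper right to GD144 at the lower left, and GD144 replicate 3 lies between the other GD144 libraries and those of GD124.

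The gap between the lists was smaller in 5 of the 6 GD144 libraries than in any earlier library. The members' mean log2 CPM minus that of the erythroid list ran from -2.53 to -2.39 at GD100 and from -2.45 to -2.12 at GD124. At GD144 it was -1.73, -2.07, -2.33, -2.03, -0.85 and -2.02 in replicates 1 to 6. The smallest gap was that of replicate 5, which had the lowest erythroid mean of all libraries, and replicate 3 lay within the range of GD124. When the mean erythroid level of each library entered the fit beside stage, 1 member was called in the earlier interval, which was PLK1 at -0.71 ± 0.21 (adjusted p = 0.0373). In that fit 14.2% of all genes were called in the earlier interval, 0.454% in the later interval and 1.15% over the whole span. None of the members was called in the later interval or over the whole span, a share close to that of all genes in this fit, and the median changes of the members were -0.23, -0.53 and -0.56. Stage accounted for 87.8% of the variance of the erythroid level, so that in this fit erythroid level and stage cannot be told apart.

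Markers of other cells changed to different extents over the same stages, and their part in the change of the mitosis genes was not tested. Of 12 hepatocyte genes, 10 were called higher at GD124 than at GD100 and 9 higher at GD144 than at GD100, and their sum was 60321 to 180335 CPM at GD100, 230222 to 270061 CPM at GD124 and 183559 to 226342 CPM at GD144. These markers were thus abundant in every library. Of 12 megakaryocyte and platelet genes tested, 10 were lower and 1 higher over the whole span, with a median of -4.13. Of 9 stem and progenitor genes 4 were lower and 2 higher, and of 9 granulocyte and myeloid progenitor genes 6 were lower and none higher. Of 11 macrophage genes 9 were higher, of 10 stellate and fibroblast genes 7 were higher and 1 lower, and of 8 endothelial genes 6 were higher. Over all genes tested, 27.9% were called lower and 27.1% higher over the whole span, and 16.6% higher at GD124 than at GD100. The 2 of 9 stem and progenitor genes called higher are near that share.

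Other genes of the division cycle moved with the members to different extents. Of 79 further mitosis genes tested, 60 were called lower in the earlier interval, and 74 lower and 1 higher in the later interval. Over the whole span 76 were called lower, with a median of -3.69. Of all genes tested, 17.4, 15.4 and 27.9% were called lower in these comparisons, and 12.1% higher in the later interval. The largest falls over the whole span were those of TROAP at -5.17, KIFC1 at -5.08 and CCNF at -5.03. CENPU, a constitutive centromere protein, was the gene called higher. It went from 24.5 ± 3.05 to 44.2 ± 18.4 CPM between GD124 and GD144 (log2 change 0.85 ± 0.21, edgeR adjusted p = 0.00737), after 51.8 ± 7.96 CPM at GD100. CENPU overlaps PRIMPOL in the RefSeq table, and it was chosen after its values were seen. Besides CENPU, ZW10 and MIS12 were not called over the whole span, with adjusted p values of 0.753 and 0.217.

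Of 26 regulators that turn mitosis genes on or off, 22 were called lower and 2 higher over the whole span. Of all genes tested, 27.9% were called lower and 27.1% higher there. FOXM1, the activator of G2 and M phase genes, went from 31.0 ± 9.62 over 8.6 ± 2.07 to 0.944 ± 0.737 CPM, a fall of 5.01 ± 0.39 (adjusted p = 1.03e-07). MYBL2, its partner at the same promoters, went from 260 ± 84.3 over 78.8 ± 27 to 8.31 ± 6.24 CPM, a fall of 4.97 ± 0.43 (adjusted p = 2.9e-07). E2F1 and E2F2, activators of S phase genes, fell by 5.49 and 5.41. The 2 called higher were CDKN1A, which encodes the CDK inhibitor p21, and RBL2, a pocket protein of the complex that silences cycle genes in resting cells. CDKN1A rose by 3.18 ± 0.42 (adjusted p = 1.44e-05), from 5.6 ± 2.21 over 15.3 ± 6.8 to 50.7 ± 22 CPM, and RBL2 rose by 0.91.

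Of 17 genes of the anaphase-promoting complex and its cofactors, 12 were called lower over the whole span, where 27.9% of all genes were. Their median was -1.01, and FBXO5, UBE2S and FZR1 fell furthest, by 4.61, 3.97 and 1.94. Of 12 cohesin genes tested, 8 were called lower, with a median of -0.68 over the list, led by ESCO2 at -4.34, RAD21 at -1.37 and SMC1A at -1.33. Of 36 DNA replication genes, 35 were called lower, with a median of -3.31 over the list, led by RRM2 at -5.23, TK1 at -4.97 and CDC6 at -4.82. The median DNA replication gene held 10.1% of its GD100 level at GD144, beside 4.5% for the median member, and GD144 replicate 3 was the highest of its stage in 30 of the 36, with a median ratio of 1.84.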

How the data were processed

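Poly(A) RNA of fetal sheep liver was sequenced in 15 paired-end libraries, per the labels' protocols. The deposited table holds estimated counts of reads per gene, not normalised, of which 6.549% of values were fractional, and these expected counts were rounded to whole numbers. The submitters' processing notes name DRAGEN, which maps and counts reads. For its version, the build, the gene models and strand use the entry is: not given in the sources used here. The report gives the range of library totals.

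Genes kept by filterByExpr (16977) were fitted with edgeR 4.0.16 in R 4.3.3, as 1 robust quasi-likelihood fit over all 15 libraries with a term per stage and TMM scaling. P-values were adjusted by Benjamini-Hochberg over all genes of a comparison at 0.05. The common dispersion was 0.1156. Standard errors were derived as absolute log2 change over the root of F. Mean log2 CPM used an offset of 0.1. DESeq2 1.42.0, other scalings and filters, a fit of each pair of stages, a replicate block, an erythroid term and leaving out single libraries were alternatives. The procedure was also run on simulated counts, with outcomes not given here. That simulation had independent genes and no outlying library, so it does not cover a library such as GD144 replicate 3. No pair of replicates matched within counting noise (chi-square over degrees of freedom at least 43.72). Floors of 3 counts cover counting error only.

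Values by library, for GD144 mostly as the lowest, median and highest of 6, are given for MKI67, TOP2A, CDK1 and CCNB1 and for the 4 members with the largest and the 4 with the smallest fall or share left. From each other list described the 3 largest called rises and falls over the whole span could be named, with KLF1, GATA1, EPOR, ALAS2, FOXM1 and MYBL2. The members and lists were chosen with earlier results of these data known. Of the members, 14 overlap another gene in the RefSeq table of ARS-UI_Ramb_v3.0, used for overlaps only: ANLN, AURKB, BIRC5, BUB1B, CCNA2, KIF11, KIF20A, KIF23, KIF4A, NCAPG, PLK1, PRC1, SPC25 and TPX2. Their counts may hold reads of the partner.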

Additional observations from a re-analysis of the deposited data

Results flagged for a closer look

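In each stage, a library was singled out where its gap to the nearest other library, divided by the range of the stage, passed the 95% value of Dixon's test. Chance alone would single out about 1 in 20 groups, and 135 groups were tested, of genes that share libraries. Most of the results below come from GD144 replicate 3, the highest of its stage.

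Among kinases and CDK1 regulators this library held 3.5 CPM of CDK1, 5.1 of AURKA, 7.54 of AURKB, 6.85 of BUB1, 5.49 of BUB1B, 8.78 of PLK1, 2.12 of TTK, 17.4 of CDC25B and 0.717 of CDC25C. Its cyclins stood at 12.3 CPM for CCNA2, 4.35 for CCNB1 and 7.64 for CCNB2. Its kinesins stood at 12.7 CPM for KIF11, 7.43 for KIF20A, 6.48 for KIF23, 3.58 for KIF2C and 7.94 for KIF4A. Centromere and kinetochore genes were at 8.89 CPM for CENPA, 10.4 for CENPE, 34.2 for CENPF, 1.83 for OIP5, 5.31 for NDC80, 7.19 for SPC24 and 5.49 for SPC25. Spindle genes were at 25.8 CPM for NUSAP1, 11.9 for PRC1, 8.31 for ASPM and 9.32 for DLGAP5, and chromosome genes at 118 CPM for MKI67, 29.5 for TOP2A, 16.1 for NCAPG and 9.32 for NCAPH. Anaphase and cytokinesis genes were at 4.46 CPM for SGO1, 7.56 for ESPL1, 4.19 for CDC20, 21.3 for UBE2C, 13.1 for BIRC5, 7.94 for ECT2 and 6.56 for ANLN. Summed over the members it held 560 CPM, and summed over the erythroid list 1917 CPM.

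GD124 replicate 5 stood above its stage in PLK1 at 36.6 CPM, SPC24 at 22.5 CPM, ESPL1 at 53.3 CPM and the erythroid sum at 6575 CPM. At GD100, CDC25B in replicate 4 at 56.3 CPM and OIP5 in replicate 1 at 5.18 CPM stood below the other libraries.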

How the results depend on the processing

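The 28 members called lower at GD124 against GD100 became 43 when these stages were fitted alone. With the replicate number as a block 18 were called lower, and with the erythroid level as a term 1. Over all genes, 17.4% were called lower in the main fit and 17.1% with these stages alone. The share was 13.2% with the block and 6.75% with the erythroid term. Leaving out 1 library at a time gave 14 to 43. For GD144 against GD124, 42 members were called, 42 to 43 without 1 library and 0 with the erythroid term. TPX2, not called in the main fit, was called by DESeq2 and when the GD124 and GD144 libraries were fitted alone. For GD144 against GD100, 43 members were called, 43 without any 1 library and 0 with the erythroid term, a fit in which 1.15% of all genes were called, against 55.0% without it. For the difference between intervals, 0 members were called, 1 with DESeq2 and 0 to 34 without 1 library, 34 being without GD144 replicate 3. Over all genes, 5.16% had a called and more negative later change with DESeq2 and 5.38% without GD144 replicate 3. With the erythroid term, log2 changes of these members turned positive at GD124 against GD100: BUB1 0.11, CCNA2 0.23, CENPF 0.23, NDC80 0.05, SPC25 0.09, NUSAP1 0.20, DLGAP5 0.40, MKI67 0.38, TOP2A 0.14, UBE2C 0.00, ECT2 0.10 and ANLN 0.19. The same held at GD144 against GD124 for CDK1 0.03, TPX2 0.62 and DLGAP5 0.02, and at GD144 against GD100 for CENPF 0.06, TPX2 0.23, DLGAP5 0.42 and MKI67 0.32. Stage accounted for most of the variance of that term. Over 13 same-numbered pairs of libraries the correlation of deviations from the stage means ran from -0.16 to 0.149, with a median of -0.0499 and 1 over 0.1. Over the other 61 pairs the median was -0.00177, with 7 over 0.1. No pairing by replicate number was seen, but a correlation over all tested genes cannot exclude one. Scaling by library totals alone put the median of all genes at -0.164 for GD124 against GD100. Depth limits PKMYT1, OIP5 and CDC25C at GD144, where single libraries held 3 counts or fewer.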
